A study of Mus musculus with 14 samples.

Results

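SMM102 melanomas treated with PLX4032 were set against untreated or vehicle-treated melanomas of the same line, over all treatment times together. PLX4032 (vemurafenib) inhibits the BRAF kinase. Genes were taken from the deposited expression table when the difference between the 10 PLX4032 tumours and the 4 controls passed the test, and when all 10 treated values lay on the same side of all 4 control values. Of the 15841 genes tested, 234 met both conditions, 113 higher and 121 lower under PLX4032, and they are called non-overlapping genes here.

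The tumours grew from SMM102, a mouse melanoma cell line, injected subcutaneously at 2 sites into each female C57BL/6J mouse, at 6 to 8 weeks of age. Dosing began at tumour volumes of 150 to 300 mm3, with intraperitoneal PLX4032 at 50 mg/kg, 5 times weekly. Days 3, 6 and 18 of PLX4032 treatment gave 2 tumours each and day 27 gave 4, while control tumours, 2 a day, date from days 3 and 6. By the labels the controls were untreated, whereas the series' design text assigns them the vehicle. All hosts were immunocompetent C57BL/6J mice carrying the same line, so each bulk sample holds melanoma and host cells together, and fewer cells of a type cannot be told apart from less RNA per cell. There were no controls of day 18 or day 27, so treatment and time cannot be told apart on those days. The 4 tumours of day 27 were the left and right tumours of 2 mice, no column can be assigned to its mouse, and the p-values are therefore too small. A single animal number appears in the labels of both a day 3 PLX4032 tumour and a day 6 control, and the day 18 labels only number the tumours.

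BRAF relays growth signals from RAS to the kinases MEK and ERK, and ERK then drives transcription factors of the ETS and AP-1 families, cyclin D1 and its own feedback inhibitors. In many melanomas a mutant BRAF holds this chain active, and BRAF inhibitors switch it off until tumour cells adapt. Tumours under such drugs are also known to change in their immune and stromal cells, so that a bulk profile mixes both kinds of change.

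Values are the authors' expression signal, a rescaled TPM whose columns add up to between 879385 and 1084401. It holds no read depth, so no counting error is given. Changes are differences of log2(signal + 1), PLX4032 minus control, with each treated day given equal weight, fitted with limma, and carry a standard error (SE) and a Benjamini-Hochberg adjusted p over all 15841 genes. This scale understates the change of genes with low signal. A gene is called at an adjusted p under 0.05. Lack of overlap was read in the same tumours as the test and adds no independent evidence.

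The pooled comparison called 3497 genes (22.1% of those tested), 2258 higher and 1239 lower. The higher ones were 64.6% of the calls, against 44.3% of 4173 calls after quantile normalisation. Many called genes did not keep one course over time. Of the 3263 called genes whose groups overlapped, 1291 (39.6%) had day means on both sides of the control mean, and 2319 deviated most on day 3. The non-overlapping genes made up 1.48% of the genes tested, 0.713% higher and 0.764% lower. With or without passing the test, 247 genes (1.56%) showed no overlap. Genes called in the same direction on each of the 4 treated days numbered 33 (0.208%), 8 higher (0.0505%) and 25 lower (0.158%), and 28 of these also lacked overlap. The other 5 were Ptgfr, Rps19-ps6, Sned1 and Sox5, which were lower, and Sirpb1a, which was higher. These calls treat the day 27 tumours as 4 samples. When those tumours were averaged per mouse in each of the 3 possible pairings, 3, 0 and 3 genes were called on all 4 days (limma, with 206, 193 and 210 at an unadjusted p under 0.05), of which 2, 0 and 2 were among the 33.

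The 4 controls split alike on both days for some gene lists, by the mean log2 deviation from the control mean. For interferon response genes, control tumour 1 of days 3 and 6 lay at 0.76 and 0.25, and control tumour 2 at -0.54 and -0.47. For monocyte and macrophage genes the values were 0.66 and 0.72 against -0.5 and -0.88. G2/M genes did not split in this way (0.12 and -0.3 against 0.07 and 0.11). The origin of the split was not tested. The counts rested heavily on single control tumours. Without control tumour 2 of day 3 the called genes numbered 443 and the non-overlapping ones 95, and without control tumour 2 of day 6 the called genes numbered 784. Without control tumour 1 of day 6, 772 genes were called without overlap. Without the tumours of day 3 the called genes numbered 1051, and without those of day 27 the non-overlapping ones numbered 1362. Leaving out tumours makes the condition of no overlap easier to meet, while the test can call more genes or fewer. A fit that ignored the day of treatment called 85 genes, of which 66 were among the 234. The genes called on all 4 days ranged from 0 (limma, with 161 to 256 genes at an unadjusted p under 0.05 in the cases that gave 0) to 215 when each tumour was left out in turn.

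The higher genes had a median log2 change of 0.78, with sizes from 0.18 to 3.02, against 0.02 over all genes tested. Their median by day was 1.13 on day 3, 0.85 on day 6, 0.66 on day 18 and 0.64 on day 27. The lower genes had a median of -0.63, with sizes from 0.18 to 2.64, and their medians by day were -0.62, -0.56, -0.61 and -0.55 on days 3, 6, 18 and 27. Taken by day, the higher genes were called in 100, 50, 33 and 32 cases on days 3, 6, 18 and 27, beside 24.9%, 4.49%, 5.42% and 3.58% of all genes tested called higher. The lower genes were called in 90, 50, 65 and 65 cases, beside 20.8%, 1.43%, 2.5% and 3.09% of all genes called lower. All 4 day comparisons share the control tumours and the tumours by which the genes were chosen, so nothing is read from these shares. A moderated F test among the 4 treated days called 34 of the higher genes (30.1%) and 11 of the lower genes (9.09%), against 48.8% of all genes tested (7736 genes, or 5146 without PLX4032 tumour 2 of day 3). The genes were chosen on these same treated values, a choice that favours little spread among days, so nothing is read from these shares either. Closest to the limit on the inner side were Atf3, Apol9a and Bad, whose nearest treated and control values were 5.6e-05, 0.00026 and 0.00037 apart on the log2 scale. Just outside it were Gm43126, Pyroxd1 and Epha1, at -3.9e-06, -0.00034 and -0.0008, negative where the groups overlap.

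The single genes below are ordered by their known roles, and apart from the lists that are counted these roles were not tested as groups. The lists were chosen with earlier results of these data known, so their counts are descriptions and not independent evidence. Lama5, Lamc1, Col18a1, Col6a3 and Itga10, of the basement membrane, the matrix and cell adhesion, were among the genes that fell. Lama5, a laminin alpha chain of basement membranes (chr2:180176373-180225859, GRCm38), ranged from 1.87 to 12.1 with a median of 4.70 in the PLX4032 tumours, against 37.0 and 76.7 in the controls of day 3 and 14.3 and 54.7 in those of day 6. Its log2 change was -2.64 (SE 0.38, adjusted p = 0.0046), the largest fall among the non-overlapping genes, and it was called on each of the 4 days with the tumours of day 27 taken singly. The 2 PLX4032 tumours of day 3 were the highest of the treated ones. Itga10, a collagen-binding integrin alpha chain, ranged from 1.88 to 5.23 with a median of 3.02 under PLX4032, against 6.49, 26.8, 16.9 and 18.8 in the controls (log2 change -1.95, SE 0.28, adjusted p = 0.0046). As in every lower gene of this set, the lowest control was above the highest treated tumour. Col18a1, the precursor of endostatin, fell by 1.15 on the log2 scale (154 to 360 in PLX4032 tumours, 377 to 577 in controls). Lamc1, a laminin gamma chain, fell by 0.45 and Col6a3, a collagen VI chain, by 0.61. Col18a1 and Col6a3 were chosen after their values were seen, as were genes named below that are neither among the 15 largest changes or 10 widest gaps of a direction nor leading or preset genes of a list.

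The list of basement membrane genes as a whole did not move one way. Of its 16 tested genes 1 rose and 6 fell, with a median of -0.15, beside 14.3% of all genes called higher and 7.82% called lower, and Lama5 and Lamc1 were its only members without overlap. Nid2, the basement membrane glycoprotein nidogen-2, rose by 0.90, and Col4a6, a collagen IV chain, fell by 1.62, both with overlapping tumours. Of 18 integrin subunits 3 rose and 4 fell (median 0.13), the rises a share near the 14.3% of all genes and the falls above the 7.82%, and Itga10 alone lacked overlap. Of 24 tested genes of fibroblasts and matrix 6 rose and 3 fell, beside the same 14.3% and 7.82%. The median of that list was 0.38, with day medians of 0.82, 0.28, 0.79 and -0.39. Its members without overlap were Col6a3, which fell, and Fbn1, which rose.

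Further falls were seen in S100a4, Anxa1, Cd109, Emp2 and Lgals7. S100a4, a calcium-binding protein linked to cell motility, ranged from 1250 to 2350 with a median of 1640 in PLX4032 tumours, against 3240, 6170, 3360 and 6090 in controls (log2 change -1.39, SE 0.23, adjusted p = 0.00672). Anxa1, a phospholipid-binding annexin, ranged from 394 to 641 with a median of 514 under PLX4032, against 1280, 1520, 910 and 1350 in controls (log2 change -1.20, SE 0.12, adjusted p = 0.00309). The 4 day changes ran from -1.53 to -1.26 for S100a4 and from -1.49 to -1.02 for Anxa1. The choice of genes favours little spread among days, so nothing is read from these narrow ranges. Cd109, a membrane-anchored co-receptor of TGF-beta, stood at 5.17 to 12.3 in PLX4032 tumours and 15.3 to 48.9 in controls (-1.50). Emp2, a tetraspan membrane protein, stood at 16.5 to 30.3 and 34.2 to 127 in PLX4032 and control tumours (-1.55). Lgals7, a galectin, nearly touched, with a highest PLX4032 tumour of 89.0 and a lowest control of 90.5 (-1.46).

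Nrn1, Nptxr, Cacnb2, Sybu, Dnm1 and Ank3, which are known from neurons, were each lower in all 10 PLX4032 tumours. Nrn1, neuritin, a surface protein that promotes neurite growth (chr13:36725361-36735131), ranged from 5.63 to 26.9 with a median of 13.1 in PLX4032 tumours, against 64.1, 131, 28.9 and 119 in controls. Its log2 change was -2.61 (SE 0.34, adjusted p = 0.00361), with day changes of -2.37, -2.52, -3.49 and -2.06 in order of time. Nptxr, the neuronal pentraxin receptor, ranged from 13.6 to 37.3 with a median of 25.7, against 58.0, 99.3, 46.1 and 97.5 in controls (-1.57, SE 0.21, adjusted p = 0.00361). Cacnb2, a subunit of voltage-gated calcium channels, ranged from 1.26 to 2.77 under PLX4032 and from 3.99 to 10.2 in controls (-1.24). Sybu, syntabulin, which links vesicles to kinesin, ranged from 0.344 to 1.39 and from 3.22 to 11.1 in PLX4032 and control tumours (-1.83), the widest gap among these genes. Dnm1, the dynamin of synaptic vesicle uptake, fell by 0.64 and Ank3, an ankyrin of the axon initial segment, by 1.12. Of the 18 tested genes on the list of ion channels and neuronal surface proteins, 11 fell and 1 rose (median -0.62), beside 7.82% of all genes called lower and 14.3% called higher, and Nrn1 was its only member without overlap. This list was chosen with earlier results of these data known, so nothing is read from its share of falls. Glp1r, the receptor of the gut hormone GLP-1, Nptx1, a secreted neuronal pentraxin, and Ano1, a calcium-activated chloride channel, changed more than most of the non-overlapping genes (-3.13, -2.40 and -2.33) and yet overlapped. Their highest treated tumours, of day 27 for Glp1r and Nptx1 and of day 18 for Ano1, lay above the lowest control.

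Notum, Bmp2, Id1, Ndp and Ptges also fell. Notum, an enzyme that inactivates WNT proteins, ranged from 1.47 to 4.0 in PLX4032 tumours, against 5.17, 29.9, 4.75 and 20.1 in controls (-1.96, SE 0.41, adjusted p = 0.0107). Bmp2, a bone morphogenetic protein, ranged from 20.4 to 45.1 under PLX4032 and from 51.6 to 156 in controls (-1.40). Id1, an inhibitor of basic helix-loop-helix factors and a known BMP target, ranged from 9.14 to 20.7 with a median of 12.7, against 31.9, 29.2, 29.0 and 35.9 in controls (-1.19, SE 0.16, adjusted p = 0.00374). Id1 also differed among the treated days (F test adjusted p = 0.0435), from -1.52 on day 3 to -0.64 on day 18. Ndp, norrin, a ligand of Frizzled receptors, fell by 1.03. Ptges, the prostaglandin E synthase, fell by 1.15 (27.2 to 39.8 in PLX4032 tumours, 40.3 to 153 in controls). Of the remaining large falls, Mgst3, a microsomal glutathione S-transferase (-1.68), Murc, a caveolar protein of muscle (-1.69), Eva1c (-1.63), Tmem200b (-1.36) and Mtcl1, a microtubule crosslinker (-1.24), had highest treated tumours of 51.9, 4.51, 3.18, 11 and 3.16, against lowest controls of 60.4, 4.67, 5.69, 13.3 and 4.40.

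**Figure D1:**
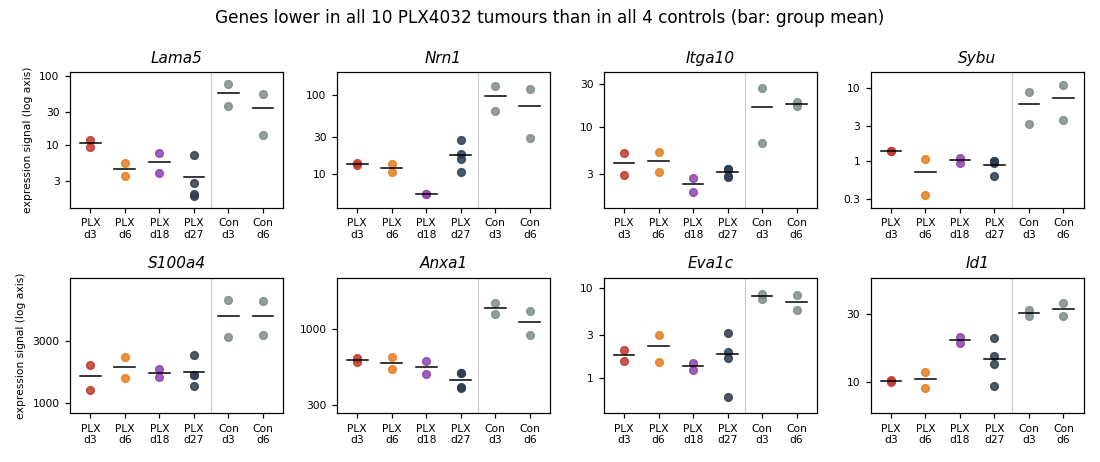
Expression signal (log axis) of 8 non-overlapping genes that fell, one point per tumour, with PLX4032 tumours of days 3, 6, 18 and 27 to the left of the grey line, controls of days 3 and 6 to its right, and bars at group means. All 10 PLX4032 tumours lie below all 4 controls in each panel, and the controls themselves spread widely, from 28.9 to 131 for Nrn1.

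Ighm, Cd72 and Tnfsf13b, which serve B cells, rose. Ighm, the constant region of the IgM heavy chain, ranged from 12.7 to 166 with a median of 30.2 in PLX4032 tumours, against 9.19, 2.59, 9.80 and 3.29 in controls (log2 change 2.89, SE 0.44, adjusted p = 0.00504). Cd72, a B cell surface protein, ranged from 67.4 to 345 with a median of 145, against 61.0, 21.3, 42.3 and 11.7 in controls (2.59, SE 0.35, adjusted p = 0.00384). That both lay above the controls on day 27 was fixed by the choice of genes. On that day alone neither was called (limma, adjusted p = 0.0802 for Ighm and 0.0663 for Cd72). Both were lower on day 27 than on days 3 and 6, and both differed among treated days (F test adjusted p = 0.0429 and 0.0143). Tnfsf13b, which encodes the B cell survival factor BAFF, was more even over time, though the choice of genes favours little spread among days. It ranged from 2.79 to 6.51 with a median of 4.80 in PLX4032 tumours, against 1.17, 0.599, 1.47 and 0.697 in controls (1.54, SE 0.20, adjusted p = 0.00361), with day changes of 1.81, 1.34, 1.67 and 1.33. Of 18 listed genes of B and plasma cells 10 were tested, the others being absent or below the filter. Of these 10 genes 7 rose (median 1.26, beside 14.3% of all genes called higher). By day the medians were 1.94, 1.3, 1.12 and 0.45, and 8, 4, 3 and 0 genes were called higher. The shares of all genes called higher on those days were 24.9%, 4.49%, 5.42% and 3.58%. The summed signal of the list was 96.5 to 523 in PLX4032 tumours and 21.0 to 79.9 in controls. That sum holds Ighm and Cd72, which were chosen for their lack of overlap, so nothing is read from its separation.

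The chemokine genes Ccl4 and Ccl11 and several receptor genes of myeloid cells rose too. Ccl4, a chemokine of activated macrophages, ranged from 6.56 to 93.0 with a median of 27.9 in PLX4032 tumours, against 5.03, 3.12, 4.18 and 1.98 in controls (2.75, SE 0.40, adjusted p = 0.0046). Ccl11, eotaxin, which attracts eosinophils, ranged from 18.8 to 134 with a median of 56.0, against 11.5, 5.44, 12.4 and 9.66 in controls (2.59, SE 0.32, adjusted p = 0.00334). Ccl4 was highest on day 6 and Ccl11 on day 18. Of 25 tested chemokine ligands 16 rose and 1 fell (median 1.36), beside 14.3% of all genes called higher, 7.82% lower and 1.48% called without overlap, and Ccl4 and Ccl11 were the 2 without overlap. Slamf9, a SLAM family receptor of myeloid cells, ranged from 16.3 to 70.9 under PLX4032 and from 3.68 to 12.2 in controls (2.47). Siglece, a sialic acid receptor of myeloid cells (2.15), Clec4b1, a C-type lectin of dendritic cells (1.98), and Ms4a4d, a four-span membrane protein (2.29), belong to gene families in which reads can be shared between near-identical members. Gpr31b, a G protein-coupled receptor of such a family, ranged from 1.84 to 25.5 with a median of 5.57 in PLX4032 tumours, against 1.09, 0.559, 0.715 and 0.384 in controls (2.27, SE 0.25, adjusted p = 0.00309). It was highest on day 6 and differed among treated days (F test adjusted p = 0.00259).

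Oasl1, Gvin1, Phf11d, Ifi208, Samd9l, Lgals9, Apol9a and Apol9b were further rises. Oasl1, a relative of the oligoadenylate synthetases, ranged from 15.8 to 135 in PLX4032 tumours and from 2.46 to 14.7 in controls (2.30). Gvin1, a very large interferon-inducible GTPase (1.96), Phf11d (1.87), Ifi208 (1.71) and Samd9l (1.33) also lacked overlap. Lgals9, galectin-9, a ligand of the checkpoint receptor TIM-3, ranged from 68.4 to 260 with a median of 108, against 64.5, 21.4, 61.0 and 21.3 in controls (1.82, SE 0.34, adjusted p = 0.00799). Apol9a and Apol9b, close paralogs whose reads may have been split between them, rose by 1.56 and 1.55. On day 27 taken alone, Oasl1, Gvin1, Phf11d, Ifi208, Samd9l, Lgals9, Apol9a and Apol9b were not called (limma, adjusted p from 0.0861 to 0.302). Their changes on that day were 0.82 to 1.28, for each gene the smallest of the 4 days. Csprs, a gene with many copies and no location matched, rose by 1.81. The list of classical interferon response genes rose in 26 of 28 tested members (median 1.47, beside 14.3% of all genes called higher), and its day 27 median was 0.31. Of the 28, 0 were free of overlap, which at a share of 1.48% over all genes is no result about the list. Irgm1, an immunity-related GTPase and the list's member with the smallest p, ranged from 72.3 to 431 in PLX4032 tumours and from 46.8 to 99.9 in controls.

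Promoters of the non-overlapping genes were read from the RefSeq table for GRCm38.p6, from 250 bases before to 50 bases after each start site. A promoter was found for 72 of the 113 higher genes, 90 of the 121 lower genes and 10924 of the 15841 tested. The core of the interferon-stimulated response element, GAAA followed by any 2 bases and GAAA, searched on both strands, was present in 9 of the 72 higher genes (12.5%) and 3 of the 90 lower genes (3.33%), against 3.95% of all genes tested. The AP-1 motif TGANTCA was present in 16.7% of higher and 4.44% of lower genes, against 6.87% of all. The ETS motif CCGGAAG was present in 4.17% of higher genes and in 9 of the 90 lower ones, against 18.7% of all, and the CRE motif TGACGTCA in 6.94% and 0% (0 of 90), against 3.38%. A match describes the letters of these windows and does not show that a factor binds there.

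Of the 9 higher genes with the interferon motif, 3 are shown because they include the checkpoint ligand and the B cell factor described above and an apolipoprotein L gene. They are written 5′ to 3′ on the strand of the gene, with matches to the core in capitals, and lie at chr11:78984875-78985174 (minus strand, Lgals9), chr8:10006383-10006682 (plus strand, Tnfsf13b) and chr15:77728822-77729121 (plus strand, Apol9b). The first match begins 55, 16 and 37 bases before the start site in Lgals9, Tnfsf13b and Apol9b, and overlapping matches in Apol9b are written as 1 stretch.
Lgals9: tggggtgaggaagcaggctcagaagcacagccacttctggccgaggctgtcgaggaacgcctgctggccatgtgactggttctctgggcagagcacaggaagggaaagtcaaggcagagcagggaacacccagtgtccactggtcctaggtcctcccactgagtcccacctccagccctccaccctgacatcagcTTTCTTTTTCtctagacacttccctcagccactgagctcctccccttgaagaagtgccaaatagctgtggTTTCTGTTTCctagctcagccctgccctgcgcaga
Tnfsf13b: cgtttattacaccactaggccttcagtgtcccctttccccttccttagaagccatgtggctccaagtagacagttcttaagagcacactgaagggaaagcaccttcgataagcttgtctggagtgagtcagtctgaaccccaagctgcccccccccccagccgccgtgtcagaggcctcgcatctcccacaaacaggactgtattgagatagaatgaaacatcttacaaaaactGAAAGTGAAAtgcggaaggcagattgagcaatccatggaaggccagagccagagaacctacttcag
Apol9b: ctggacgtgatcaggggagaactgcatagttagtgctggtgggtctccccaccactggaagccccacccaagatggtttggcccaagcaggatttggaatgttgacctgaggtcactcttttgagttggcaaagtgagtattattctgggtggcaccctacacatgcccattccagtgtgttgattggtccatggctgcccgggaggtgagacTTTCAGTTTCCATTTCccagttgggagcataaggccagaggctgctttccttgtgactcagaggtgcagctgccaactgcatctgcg

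The remaining rises included Tagln, Nnmt, Ass1 and Pdgfb. Tagln, transgelin, an actin-binding protein of smooth muscle, ranged from 51.0 to 112 with a median of 78.0 in PLX4032 tumours, against 23.8, 9.5, 39.4 and 5.45 in controls (2.22, SE 0.41, adjusted p = 0.00798). Its 4 day changes lay between 1.85 and 2.61. Nnmt, nicotinamide N-methyltransferase, ranged from 8.51 to 40.8 with a median of 11.2, against 5.22, 4.81, 3.55 and 2.15 in controls (1.74, SE 0.17, adjusted p = 0.00309). The 2 tumours of day 18 stood apart at 40.8 and 29.2 (F test among treated days, adjusted p = 0.00171). Ass1, argininosuccinate synthase of the urea cycle, ranged from 32.9 to 113 under PLX4032 and from 7.89 to 23.7 in controls (1.72). Pdgfb, a growth factor that recruits pericytes, ranged from 9.19 to 18.6 and from 4.02 to 7.26 in PLX4032 and control tumours (1.05), while the receptor gene Pdgfrb fell by 0.47 (34.6 to 61.4 in PLX4032 tumours, 62.3 to 80.4 in controls). Fbn1, the microfibril protein fibrillin-1, rose by 0.62 and Col15a1, a collagen of vessel basement membranes, by 1.66. The day changes of Col15a1 were 1.11, 0.48, 2.77 and 2.25 in order of time (F test among treated days, adjusted p = 0.00292). Its larger changes thus fell on days 18 and 27, which had no controls of their own. Of 13 tested genes of pericytes and smooth muscle 8 rose and 2 fell (median 0.64), beside 14.3% of all genes called higher and 7.82% lower, with Tagln and Pdgfrb on opposite sides.

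**Figure D2:**
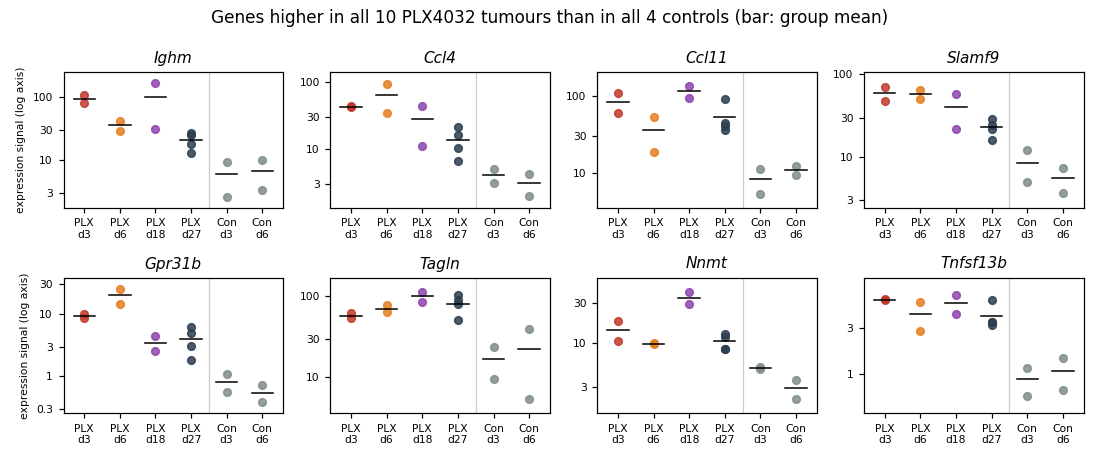
Expression signal (log axis) of 8 non-overlapping genes that rose, one point per tumour, with PLX4032 tumours of days 3, 6, 18 and 27 to the left of the grey line, controls to its right, and bars at group means. All 10 PLX4032 tumours lie above all 4 controls, and the level of Gpr31b and Nnmt differs between treated days while that of Tagln and Tnfsf13b is more even.

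Markers of whole cell types moved with these rises in the early tumours, and their part in the results was not tested. Of 23 T cell genes 20 rose (median 1.33, beside 14.3% of all genes called higher), with day medians of 2.54, 2.00, 0.90 and -0.19, and the summed signal was 52.3 to 689 in PLX4032 tumours and 52.9 to 95.7 in controls. Of 26 monocyte and macrophage genes 18 rose (median 1.34), with day medians of 2.64, 1.40, 1.13 and -0.03 and sums of 1600 to 20100 under PLX4032 and 1300 to 3820 in controls. Cd8a, a marker of cytotoxic T cells, ranged from 1.1 to 50.6 under PLX4032 and from 1.29 to 2.21 in controls, with its lowest value on day 27. All 17 tested adipocyte genes rose in the pooled comparison (median 1.48), but the day medians were 0.97, 0.35, 4.56 and -0.42, with day 18 far above the other days. Plin1, which coats fat droplets and is listed at 0 in 1 tumour of day 27, reached 71.2 on day 18, against 0.016 to 0.923 in controls.

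All 24 tested G2/M genes, which serve cell division, fell in the pooled comparison (median -0.53, beside 7.82% of all genes called lower), yet the day medians were -1.89, -0.15, 0.11 and -0.22. In female hosts the Y-linked genes Ddx3y, Kdm5d and Uty can come from the injected line alone if it is male, and their summed signal was 14.3 to 46.8 in PLX4032 tumours and 30.7 to 44.7 in controls, with adjusted p-values of 0.0738, 0.358 and 0.296. Xist, the RNA that silences an X chromosome in female cells, rose with overlap (13 to 78.5 in PLX4032 tumours, 7.98 to 24.7 in controls, adjusted p = 0.0144). Of 13 tested melanocyte and neural crest genes 1 rose (median 0.26), a share below the 14.3% of all genes called higher.

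**Figure D3:**
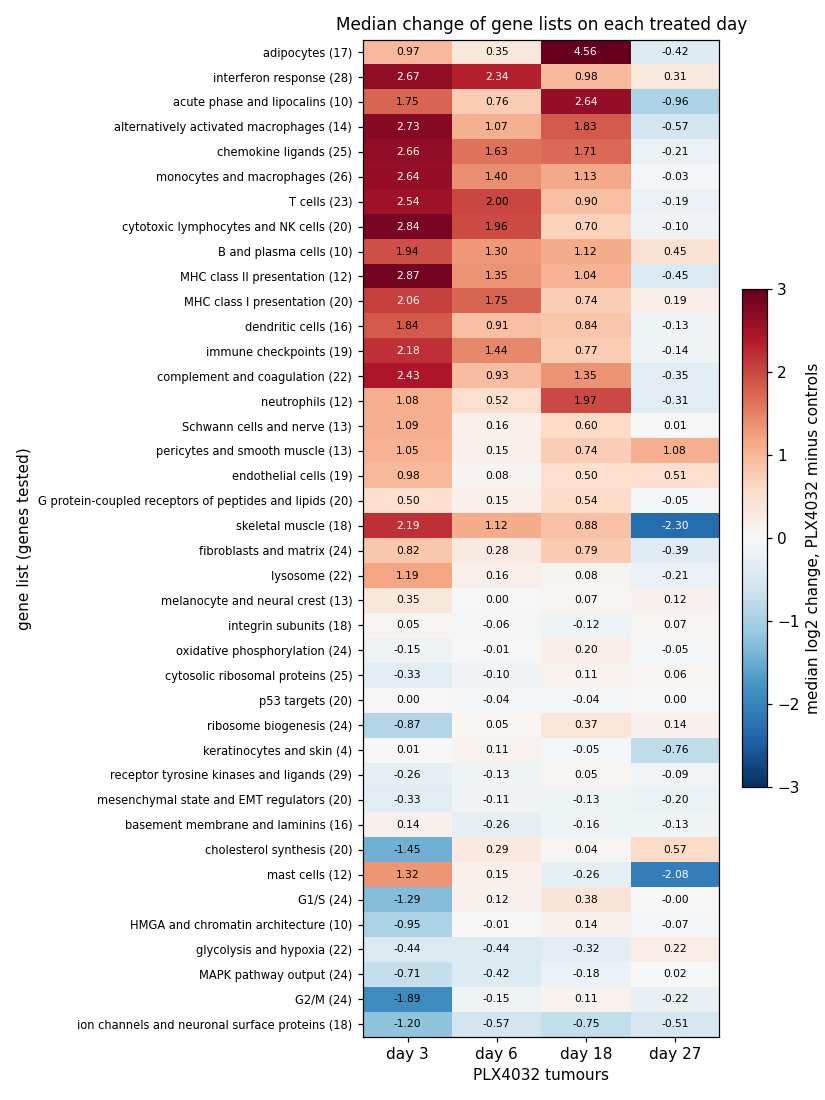
Median log2 change (PLX4032 minus controls, colour and printed value) of 40 gene lists on each treated day, ordered by the pooled median, with the number of genes tested in parentheses; all columns share the same 4 controls. Immune lists other than mast cells have medians above 0 on days 3, 6 and 18 and, apart from B and plasma cells, interferon response and MHC class I presentation, at or below 0 on day 27, while the list of ion channels and neuronal surface proteins lies between -1.20 and -0.51 on all 4 days. The lists were chosen with earlier results of these data known.

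Of 24 tested genes that report MAPK pathway output 10 fell and 1 rose (median -0.37), beside 7.82% of all genes called lower and 14.3% called higher, with day medians of -0.71, -0.42, -0.18 and 0.02, and the gene that rose was Fos. Etv1, an ETS transcription factor, was the only one of the 24 without overlap, at 20.3 to 43.6 with a median of 33.8 in PLX4032 tumours, against 51.7, 73.4, 47.3 and 57.5 in controls (log2 change -0.83, SE 0.15, adjusted p = 0.00761). It was lowest on day 18. The related Etv4 ranged from 12.6 to 109 in PLX4032 tumours and from 60.7 to 137 in controls, with day changes of -2.38, -1.04, -0.41 and 0.17 that differed among days (F test adjusted p = 0.000138). Ccnd1, cyclin D1, and Fosl1, the AP-1 factor FRA1, fell in the pooled comparison (-0.64 and -0.84) with overlap, and the feedback inhibitors Dusp6 (0.00, adjusted p = 0.986) and Spry4 (-0.25, adjusted p = 0.186) did not pass the test.

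Several genes that act around RAS were non-overlapping, by margins that were narrow for Rin1 and wider for Paqr3 and Rap1gap. Shoc2, a leucine-rich repeat scaffold of RAS signalling, ranged from 19.3 to 22.8 under PLX4032 and from 24.1 to 28.1 in controls (-0.30). Paqr3, a Golgi membrane protein, rose by 0.51 and Dusp16, a MAP kinase phosphatase, by 0.49. Rap1gap, which inactivates RAP1, fell by 0.72, and Rin1, a RAS effector, fell by 0.65, with -1.49 on day 3 and -0.25 on day 27.

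**Figure D4:**
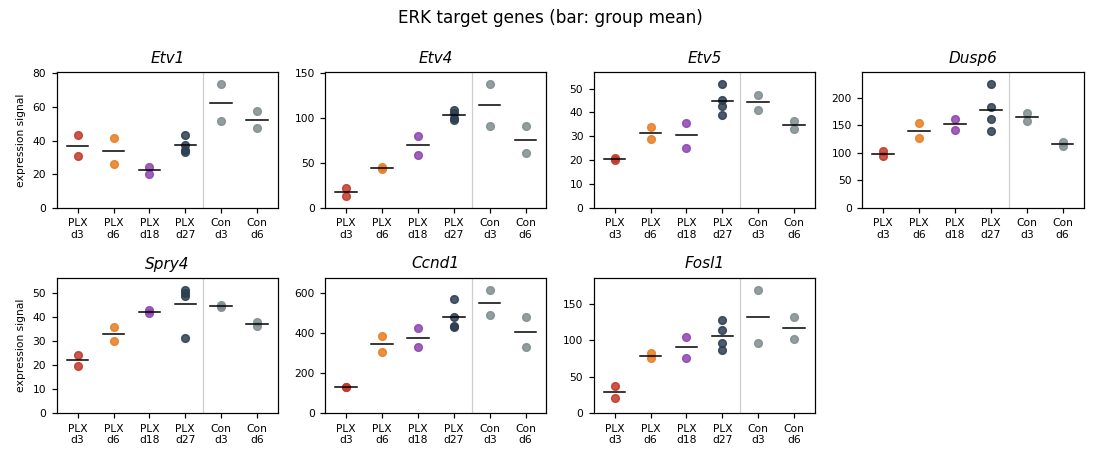
Expression signal (linear axes from 0) of 7 ERK target genes, one point per tumour, with PLX4032 tumours to the left of the grey line, controls to its right, and bars at group means. Etv1 separates all 10 PLX4032 tumours from all 4 controls, whereas Etv4, Ccnd1, Fosl1 and Spry4 are low on day 3 and overlap the controls by day 27.

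The non-overlapping genes were unevenly spread over the chromosomes, a pattern noticed in the data and described without a test. Of the 121 lower genes 26 (21.5%) lie on chromosome 19, which holds 3.16% of the genes tested, and of the 113 higher genes 19 (16.8%) lie on chromosome 6, which holds 5.12%. On chromosome 19 they ran from Ppp6r3 to Shoc2 and included Anxa1 (-1.20), Klf9, a Krueppel-like factor (-0.96), Rin1, Kat5, a histone acetyltransferase (-0.29), and Bad, a pro-apoptotic BCL2 relative (-0.37). Of the 500 tested genes of chromosome 19, 141 (28.2%) were called lower, against 7.82% of all genes. The chromosome's median change relative to genes elsewhere, over 387 genes with a mean signal of 5 or more, was -0.26 to -0.11 in the 10 PLX4032 tumours and -0.06 to 0.05 in the 4 controls, with no overlap. It was -0.25 to -0.08 in PLX4032 tumours when the non-overlapping genes were left out. Over the 387 genes the controls also differed by day, with 0.05 and 0.05 on day 3 and -0.06 and -0.03 on day 6. The PLX4032 tumours nearest to them, those of day 3, lay at -0.12 and -0.11.

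On chromosome 6 the late tumours stood apart. Its relative median, over 559 genes, was 0.04 in both tumours of day 3, 0.02 and 0.03 on day 6, 0.09 and 0.16 on day 18 and 0.29 to 0.36 on day 27, against -0.01 to 0.01 in controls. The other 18 chromosomes lay between -0.13 and 0.15 in PLX4032 tumours. The higher genes of chromosome 6 included Dusp16, Clec4b1, Samd9l, Zc3hav1, an antiviral zinc-finger protein (0.56), and Tmsb10, an actin-binding thymosin (0.48). They did not all follow the late course of the chromosome median. Dusp16, Clec4b1 and Samd9l changed by 0.63, 3.02 and 1.63 on day 3 and by less, 0.47, 0.85 and 0.82, on day 27. What the 2 chromosomal patterns stem from was not tested.

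**Figure D5:**
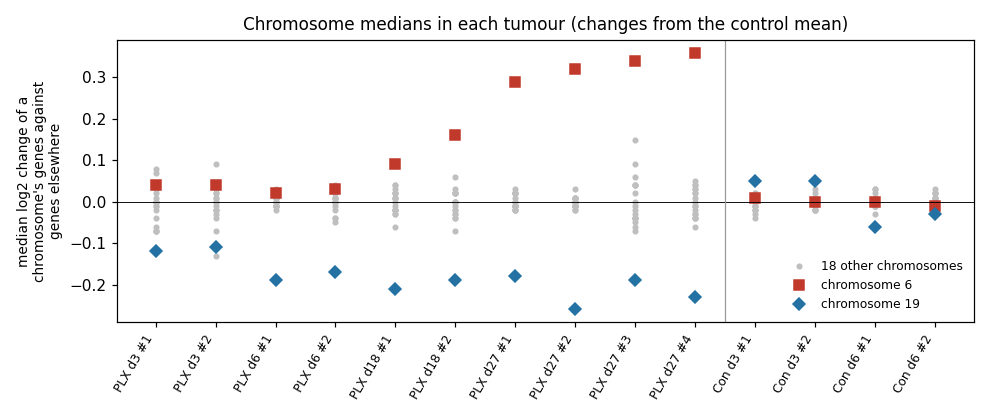
Median log2 change of each chromosome's genes relative to genes elsewhere (vertical axis), measured from the control mean, in each of the 14 tumours, with PLX4032 tumours to the left of the grey line and controls to its right. Chromosome 19 lies at -0.26 to -0.11 in all PLX4032 tumours, and chromosome 6 reaches 0.29 to 0.36 in the 4 tumours of day 27.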

How the data were processed

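RNA sequencing of 14 bulk frozen tumours gave 1 deposited table. The authors deposited it as an expression signal per gene symbol, named TPM although 5 of 14 columns exceed the total that TPM can have, so it had been rescaled, by a step the sources used here do not give. Kallisto, sleuth and mm10 are named, without versions, per the submitters' processing notes. Depth is unknown. A column's name gives its group and not its animal, so nothing pairs columns across groups. The correlation of log2 values within groups was 0.971 to 0.992. The table lists 18481 genes, of which 54 rows repeat another row. Symbols were restored to official case for 17811 (96.4%), and coordinates are those of GENCODE M21 on GRCm38, the assembly of mm10.

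Genes with a signal of 1 or more in at least 2 tumours were kept, log2(signal + 1) was taken, and 6 group means were fitted with limma 3.58.1 (R 4.3.3) with a variance trend, 2-sided. The pooled contrast is the mean of the 4 treated day means minus the mean of the 2 control day means. Treated days were compared with a moderated F test. The p-values reflect how these tumours spread, which may be partly technical. The test had been planned for TPM and was kept for the rescaled signal. The steps were tested on simulated data.

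The non-overlapping genes, the gene lists and the questions were chosen with earlier results of these data known. Genes were named as the 15 largest changes and 10 widest gaps per direction among called genes that did not overlap, given a group mean of at least 5, and excluding predicted genes, clone names, pseudogenes and receptor segments. To these came preset genes and, per list described, at most 4 genes by smallest p. Promoters on chromosome 18 and a few of the genes are not reported here. Alternatives were pseudocounts of 0.1 and 5, filters at 5 and above 0, 2 rescalings, no variance trend, sample weights, a fit without day, other choices of days and controls, averaging day 27 tumours in the 3 possible pairs, and leaving out each tumour. Alternatives for the chromosome medians were chosen after seeing the data.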

Additional observations from a re-analysis of the deposited data

Results flagged for a closer look

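Among the genes named, 285 groups of values were looked at for a tumour far from the others of its group, and 8 were found, where chance gives about 1 in 20 groups. On day 27 these were Sybu, with a low tumour at 0.632, Lgals7, with a high tumour at 89.0, Spry4, with a low tumour at 31.2, Cd8a, with a low tumour at 1.1, and Ptprc, the leukocyte surface phosphatase CD45, with a high tumour at 34.1. The tumour of day 27 that was lowest for Cd8a was the highest for Ptprc, and the one lowest for Sybu was the highest for Lgals7. Over all 10 PLX4032 tumours, Pdgfrb had a low tumour at 34.6, on day 6. Among the 4 controls, Kif11, a mitotic kinesin, had a low tumour at 13.2, on day 6, and Dpt, the matrix protein dermatopontin, a high tumour at 30.3, on day 3.

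Of the 41 non-overlapping genes named by rule, 9 differed among the treated days by the moderated F test of limma, beside 48.8% of all genes tested. The choice of these genes favours little spread among days, so nothing is read from that count. The adjusted p was 0.0429 for Ighm, 0.0329 for Ccl4, 0.0143 for Cd72, 0.0454 for Slamf9, 0.00259 for Gpr31b, 0.0116 for Clec4b1, 0.0246 for Gvin1, 0.00171 for Nnmt and 0.0435 for Id1. The change was smallest on day 27 for Ighm, Ccl4, Cd72, Slamf9, Clec4b1 and Gvin1, on day 18 for Gpr31b and Id1, and on day 6 for Nnmt. Their side of the controls was fixed by the way the genes were chosen.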

How the results depend on the processing

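The pooled comparison called 3497 genes. It called 85 in a fit without day, 1051 without day 3, 1254 with the controls of day 3 alone and 769 with those of day 6 alone, and 443 to 4170 when each tumour was left out in turn. The non-overlapping genes, 234 in all, numbered 66 without day, 2553 with treated days 3 and 6 alone, 1362 without day 27, 573 with the controls of day 3 alone, 360 and 376 with 2 of the 3 pairings of day 27, and 95 to 772 when each tumour was left out. The genes called on all 4 days, 33 in all, numbered 54 under quantile normalisation, 0 with either control day alone (limma, with 362 and 173 at an unadjusted p under 0.05 for day 3 and day 6), 3, 0 and 3 under the 3 pairings (206, 193 and 210 unadjusted) and 0 to 215 when each tumour was left out. The genes differing among treated days, 7736 in all, ranged from 5146 to 7874 in the same way. With fewer tumours the condition of no overlap is easier to meet by its definition, and the cause of these shifts was otherwise not tested. Quantile normalisation moved the share of calls that were higher to 44.3%, against 64.6% as reported, and the median of all genes to -0.071. Of the 234 genes, 40 kept their call under all 34 alternatives and 0 changed direction. Adipoq, the adipocyte hormone gene, changed direction without day 18 (-0.06, against 1.38). No paired analysis was possible because the columns carry numbers that only name tumours within a group. The chromosome medians, PLX4032 minus control, were 0.11 to 0.137 for chromosome 6 and -0.185 to -0.154 for chromosome 19 over the alternatives.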
